A study of Mus musculus with 3 samples.

Results

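The genes described here carry fatty acid oxidation and ketone body formation in the mouse liver, together with the nuclear receptor PPARA and genes that it is known to induce. They were chosen by name as 35 genes, and all 35 were found among the 23361 genes of the deposited tables. They comprise 16 genes of mitochondrial oxidation, 5 of peroxisomal oxidation, 2 of ketogenesis and 12 for PPARA, its inducible targets and lipid droplet proteins. The samples were livers of C57BL/6J mice labelled as male, 8 to 10 weeks old and fasted for 12 h before surgery. The sham sample followed a laparotomy without occlusion and a wait of 90 min. For the warm ischemia (WI) sample the portal triad to the left and median lobes was clamped for 90 min, and for the ischemia followed by reperfusion (IR) sample the same clamping was followed by 120 min of reperfusion. Each condition is 1 library, and although the study used 6 mice per group, the sources do not state how many mice a library holds. There are therefore no replicates, no p-values are given, and no sham library matches the IR library in time after surgery.

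In the fasting liver, fatty acids are activated to acyl-CoA, carried into mitochondria by carnitine and shortened in repeated cycles of dehydrogenation, hydration, oxidation and thiolysis. The acetyl-CoA that results is turned into ketone bodies, while peroxisomes start the oxidation of very long and branched chains. PPARA binds DNA as a partner of RXR when fatty acids occupy it, and it is known for raising the expression of genes along these routes during fasting. Fatty acids that are not oxidized are stored in lipid droplets coated by perilipins.

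Levels are given as FPKM, the fragments on a gene corrected for transcript length and sequencing depth. Cuffdiff gave each FPKM with 95% bounds, which come from its model of the counts and do not cover the variation between mice. All 35 genes had the status OK in the 3 libraries and passed a filter for genes that reach an FPKM of 1 in any library, as did 10792 genes in all. The depth on single genes is unknown, since the files hold no counts. Changes are differences of log2(FPKM + 1), which understates the change of genes at low FPKM, and a gene was counted as past 2-fold when FPKM + 1 differed at least 2-fold. For the median gene of the 35 the bounds corresponded to a coefficient of variation of 27.3%, 26.9% and 27.2% under sham, WI and IR.

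The libraries went against their labels in one respect. Xist, the RNA of the inactive X chromosome, had an FPKM of 18.9 under sham, 20.1 under WI and 1.29 under IR, and of 4 Y-linked genes 4 were listed at 0 under sham, 3 under WI and 0 under IR. All 8 of the listed male-biased liver genes were at least 2-fold higher in the IR library than in each of the others. The 12 listed female-biased liver genes were less uniform. From sham to IR 6 were at least 2-fold lower and 1, A1bg, was higher, and from WI to IR 3 were lower and 2 higher. From sham to WI 4 were at least 2-fold lower. Sex and reperfusion therefore cannot be told apart in any comparison with the IR library, and such a comparison cannot be made without it. The summed FPKM of 5 neutrophil markers was 25.3, 19.2 and 465 under sham, WI and IR, and that of 7 Kupffer cell and macrophage markers was 479, 242 and 147. That of 5 erythroid markers was 751, 518 and 1976. Hepatocyte markers were abundant throughout, except that Alb was listed at 0 in the 3 libraries with the status HIDATA, which Cuffdiff gives to loci with too many fragments to process. In bulk tissue, fewer cells of a type and less RNA per cell cannot be told apart.

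**Figure D1:**
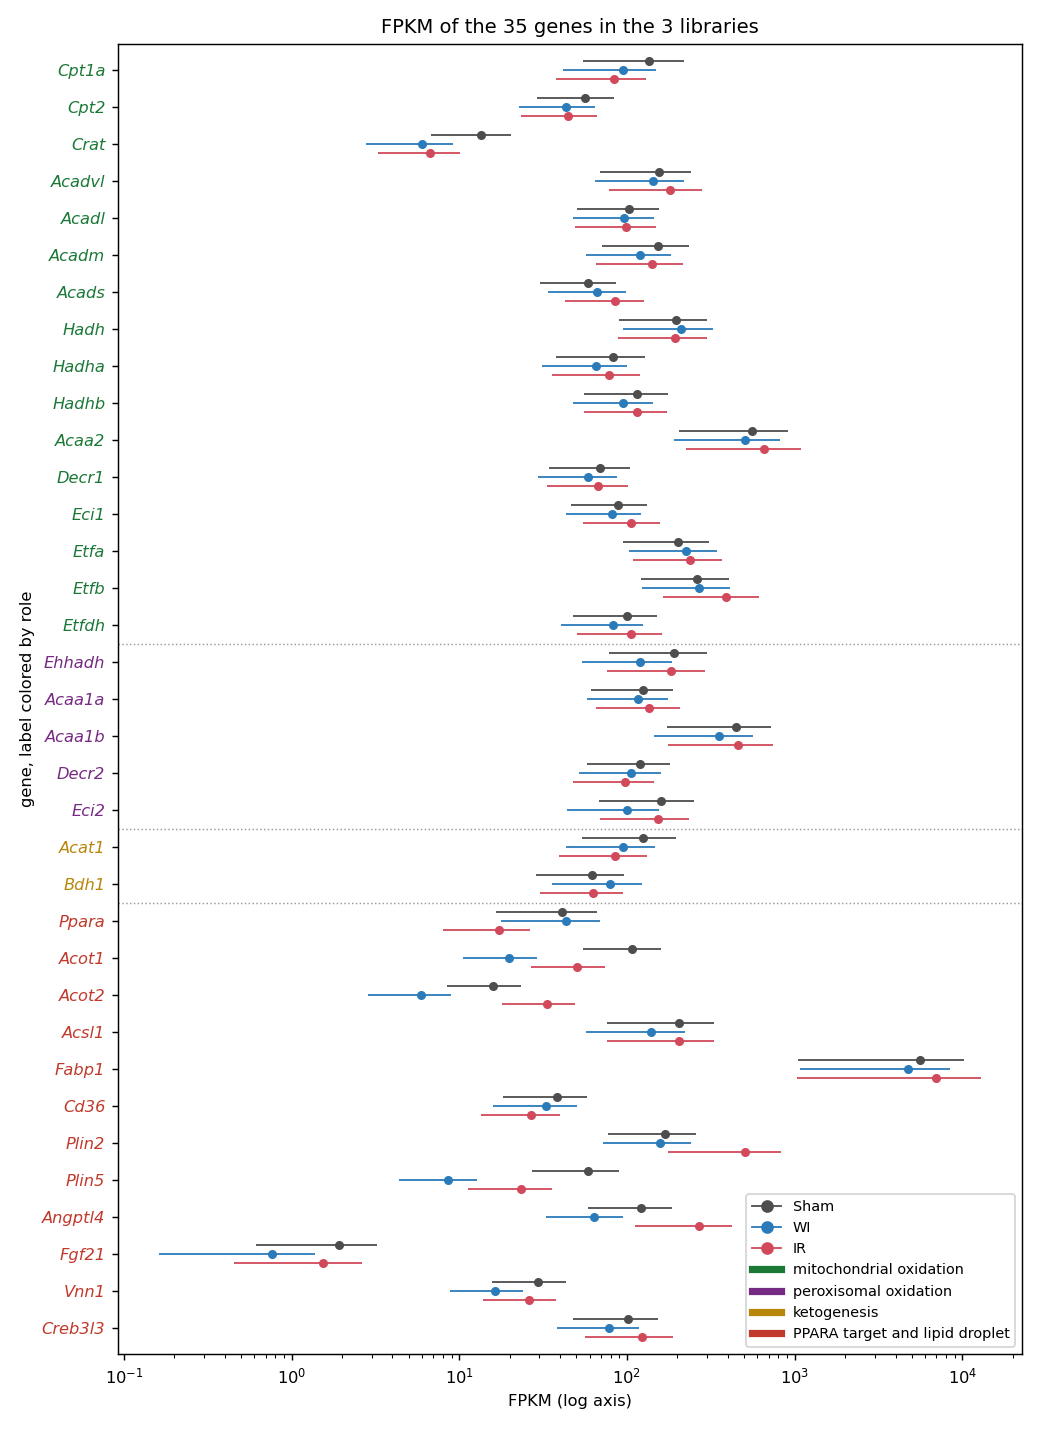
FPKM on a log axis for each of the 35 genes in the sham, WI and IR libraries (points, 1 library each) with the 95% bounds of the Cuffdiff model (lines). Genes of mitochondrial and peroxisomal oxidation have overlapping bounds in the 3 libraries, while Acot1, Acot2, Plin5 and Angptl4 each have a pair of libraries whose bounds do not overlap.

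Comparing WI with sham asks how the library after 90 min of ischemia without reperfusion differed from the sham library. Of the 35 genes 4 were at least 2-fold lower under WI (11.4%, against 1.10% of all genes tested), namely Plin5, Acot1, Acot2 and Crat, and 0 were at least 2-fold higher (against 0.751%). The first 3 belong to the 12 PPARA target and lipid droplet genes and Crat to the 16 mitochondrial genes, while 0 of the peroxisomal and ketogenesis genes passed 2-fold. The 12 PPARA target and lipid droplet genes had a median change of -0.63 on the log2 scale, the 5 peroxisomal genes -0.33, the 16 mitochondrial genes -0.19 and the 2 ketogenesis genes -0.03, beside 0.02 over all genes tested. The ketogenesis value is the midpoint of opposite changes, -0.39 for Acat1 and 0.34 for Bdh1. A change below 0 was seen for 29 of the 35 genes, compared with 47.3% of all genes tested. The bounds of the libraries did not overlap for 2 of the 4 genes past 2-fold, Plin5 and Acot1, and 0.621% of all genes met both criteria.

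Comparing IR with WI asks what followed when blood flow returned. Of the 35 genes 5 were at least 2-fold higher under IR (14.3%, against 5.78% of all genes tested), namely Acot2, Angptl4, Plin2, Plin5 and Acot1, all of the PPARA target and lipid droplet class. Ppara itself was the 1 gene at least 2-fold lower (2.86%, against 1.43%). The median change was 0.64 for the PPARA target and lipid droplet genes, -0.24 for the ketogenesis genes, 0.38 for the peroxisomal genes and 0.24 for the mitochondrial genes, and the latter 2 medians turned to -0.17 and -0.30 when FPKM was rescaled to a common sum in each library. That rescaling moved the median of all genes from 0.03 to -0.45, since the summed FPKM of all genes was 487912 under WI and 712423 under IR. With it, 3 of the 5 genes remained past 2-fold, and the changes of Acot1 and Plin5 were 0.78 and 0.88, while 3.57% of all genes tested were at least 2-fold higher and 10.98% at least 2-fold lower. For 2 of the 6 genes past 2-fold, Acot2 and Angptl4, the bounds did not overlap, and 3.45% of all genes met both criteria.

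Comparing IR with sham sets the end of the procedure against the liver without occlusion. Of the 35 genes 3 were at least 2-fold higher under IR (8.57%, against 5.35% of all genes tested), namely Plin2, Angptl4 and Acot2, and 3 were at least 2-fold lower (8.57%, against 2.15%), namely Plin5, Ppara and Acot1. The medians were -0.02 for mitochondrial, -0.05 for peroxisomal, -0.27 for ketogenesis and -0.09 for PPARA target and lipid droplet genes, beside 0.05 over all genes tested. Changes in the last class ran from -1.28 for Plin5 to 1.58 for Plin2. Bounds overlapped for all 6 genes past 2-fold, whereas 3.59% of all genes were past 2-fold with bounds apart. With FPKM rescaled to a common sum, Plin2 alone was at least 2-fold higher and 7 genes were at least 2-fold lower, with Cpt1a, Crat, Acat1 and Cd36 beside the 3 above. With that scaling 2.96% of all genes tested were at least 2-fold higher and 14.4% at least 2-fold lower. Each library enters 2 of the 3 comparisons, so these are not independent of each other.

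**Figure D2:**
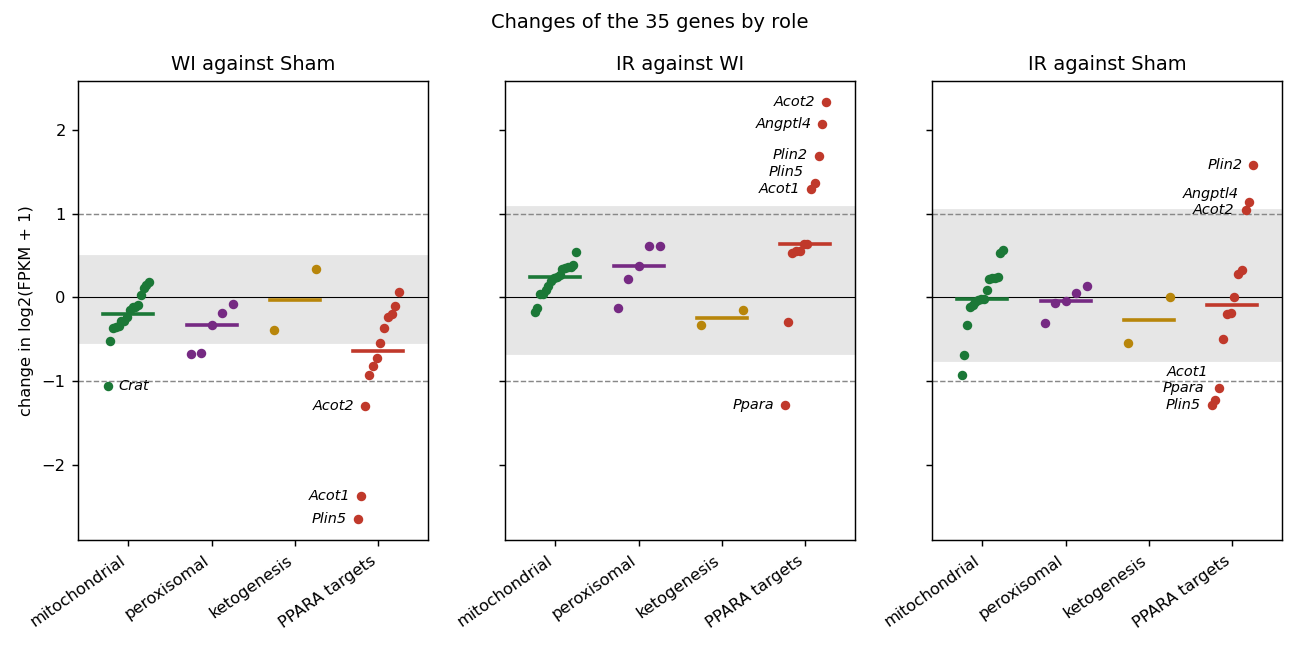
Change in log2(FPKM + 1) of the 35 genes by role in the 3 comparisons (points, genes; short lines, class medians; dashed lines, 2-fold; gray band, the 5th to 95th percentile of all 10792 genes tested). Genes past 2-fold are named, and all but Crat belong to the PPARA target and lipid droplet class. The positive medians of the mitochondrial and peroxisomal genes from WI to IR turned negative with FPKM rescaled to a common sum. The median of all genes was then at -0.45.

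Plin5, which coats lipid droplets and links them to mitochondria, lies on chromosome 17 of mm10 from 56111601 to 56117548. Its FPKM was 58.6 under sham (27.3 to 89.9), 8.53 under WI (4.35 to 12.7) and 23.5 under IR (11.3 to 35.6). The WI library was lowest, with bounds below those of the sham library, while the bounds of the IR library overlapped both. The change from sham to WI was -2.64, which is 6.25-fold in FPKM + 1 and rank 9 from the lowest of 10792 genes. From WI to IR the change was 1.36, which left IR at -1.28 against sham.

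Plin2, the main lipid droplet coat protein of hepatocytes, lies on chromosome 4 from 86656565 to 86670059 and showed another order. Its FPKM was 168 under sham (76.8 to 259.6), 157 under WI (72.4 to 241) and 504 under IR (175 to 834). Sham and WI were nearly level and IR was high, although its lower bound still fell within the bounds of both other libraries. The change was -0.10 from sham to WI, 1.68 from WI to IR and 1.58 from sham to IR. Plin2 is also expressed by macrophages that take up lipid. All 5 neutrophil markers were at least 2-fold higher under IR than under sham, and of the 7 Kupffer cell and macrophage markers 6 were at least 2-fold lower and Marco was at 0.27. Their part in the level of Plin2 was not tested.

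Promoter sequences are shown for these perilipins and for the thioesterases Acot1 and Acot2, since both are pairs of relatives whose members differed in their order across the samples. Each is the 250 bases before the start in RefSeq on GRCm38.p6, the assembly that mm10 stands for, read 5′ to 3′ on the strand of the gene. That of Plin5 is chr17:56117549-56117798 and that of Plin2 chr4:86670060-86670309, both on the minus strand. Those of Acot1, chr12:84009252-84009501, and Acot2, chr12:83987611-83987860, are on the plus strand. Capitals mark the hexamer AGGTCA, read as TGACCT where it is on the other strand, of which PPARA and RXR bind a direct repeat.
Plin5: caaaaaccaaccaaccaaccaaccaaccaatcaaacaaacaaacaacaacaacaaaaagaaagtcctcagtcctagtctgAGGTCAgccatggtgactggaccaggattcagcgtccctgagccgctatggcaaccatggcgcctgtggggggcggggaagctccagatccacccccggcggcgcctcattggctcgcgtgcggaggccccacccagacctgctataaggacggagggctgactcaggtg
Plin2: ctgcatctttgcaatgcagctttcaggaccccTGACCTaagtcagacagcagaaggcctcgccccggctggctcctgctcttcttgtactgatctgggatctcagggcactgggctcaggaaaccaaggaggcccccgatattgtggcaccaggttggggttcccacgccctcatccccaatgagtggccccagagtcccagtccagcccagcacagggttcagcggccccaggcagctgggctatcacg
Acot1: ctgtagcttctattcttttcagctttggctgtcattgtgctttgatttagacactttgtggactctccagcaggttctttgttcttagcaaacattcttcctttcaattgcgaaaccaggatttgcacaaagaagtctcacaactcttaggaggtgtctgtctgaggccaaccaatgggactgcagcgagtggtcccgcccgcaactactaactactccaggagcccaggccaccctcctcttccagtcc
Acot2: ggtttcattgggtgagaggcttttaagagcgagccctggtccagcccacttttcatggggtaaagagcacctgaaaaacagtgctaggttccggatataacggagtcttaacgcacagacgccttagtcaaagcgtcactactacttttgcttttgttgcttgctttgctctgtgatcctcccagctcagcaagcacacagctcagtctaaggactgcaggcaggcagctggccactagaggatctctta

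A promoter entry was matched for 29 of the 35 genes, and none was used for Acaa2, Acat1, Angptl4, Crat, Decr1 and Vnn1. On either strand AGGTCA occurred in 7 of these 29 windows (24.1%), those of Acadm, Acadvl, Cd36, Cpt1a, Fabp1, Plin2 and Plin5, compared with 14.0% of the 32851 windows of that length over all genes. The window of Cd36 lies 53063 bases from the start of the deposited gene, and those of the other 6 lie within 9 bases of it. The repeat of 2 such hexamers with 1 base between them (DR1), each copy of which also counts under AGGTCA, occurred in 0 of the 29 windows and in 11 of all windows. ACGTG, the core of the site of hypoxia-inducible factors, occurred in 2 of the 29 (6.90%), those of Acadvl and Fgf21, against 16.6% of all windows. Among the printed windows, Plin5 has AGGTCA at -170 on the gene's strand and Plin2 at -218 on the other strand, while those of Acot1 and Acot2 hold none of the 3 motifs. A match describes letters in this window and says nothing about binding.

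Acot1 and Acot2 encode acyl-CoA thioesterases, which release free fatty acids from acyl-CoA in the cytosol and in mitochondria, respectively. They are neighbours on chromosome 12, Acot2 from 83987861 to 83993875 and Acot1 from 84009502 to 84017669. The FPKM of Acot1 was 107 under sham (54.5 to 159.6), 19.9 under WI (10.6 to 29.2) and 50.3 under IR (26.8 to 73.8). That of Acot2 was 15.9 under sham (8.47 to 23.2), 5.88 under WI (2.87 to 8.88) and 33.6 under IR (17.9 to 49.2). Both were lowest under WI, but the highest library was sham for Acot1 and IR for Acot2. Acot1 had a change of -2.37 from sham to WI, rank 11 from the lowest of all genes tested, and 1.30 from WI to IR. Acot2 had -1.29 and then 2.33. Against sham, IR was at -1.07 for Acot1 and at 1.04 for Acot2.

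The level of each of these paralogs is uncertain, since their transcripts share sequence. Of the 50-base windows in the longest Acot1 transcript of the GENCODE annotation, 34.8% occur unchanged in Acot2, and 24.5% of those in Acot2 occur in Acot1. Acot1 also shares 13.3% of its windows with Acot5, 11.3% with Acot3, 6.27% with Acot6 and 5.61% with Acot4. For Acot2 the highest share with these 4 genes is 3.87%, with Acot4. Fragments from shared windows could be assigned to any gene that holds them. The peroxisomal thiolases Acaa1a and Acaa1b are alike in this respect, with 34.1% of the windows of Acaa1a found in Acaa1b.

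Angptl4, a secreted inhibitor of lipoprotein lipase known to respond to PPARA and to hypoxia, lies on chromosome 17 from 33774900 to 33781575. Its FPKM was 122 under sham (58.6 to 185), 63.5 under WI (32.7 to 94.3) and 268 under IR (112 to 424). The bounds of WI and IR were apart, and those of sham overlapped both. The change was -0.93 from sham to WI, short of 2-fold, then 2.06 from WI to IR and 1.13 from sham to IR.

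Ppara, on chromosome 15 from 85735564 to 85806851, had a different order from the genes above. Its FPKM was 41.2 under sham (16.6 to 65.9), 43.2 under WI (17.8 to 68.7) and 17.2 under IR (8.03 to 26.3). Sham and WI were level and IR was lowest, with bounds that overlapped those of the others. Its change was 0.07 from sham to WI, -1.28 from WI to IR and -1.22 from sham to IR. The mRNA of the receptor was thus near its sham level under WI, where Plin5, Acot1 and Acot2 were lowest. It was lowest under IR, where Acot2, Angptl4 and Plin2 were highest, but Plin5 and Acot1 were also below sham, at -1.28 and -1.07. Sex cannot be told apart from reperfusion in these values, and a relation of the receptor to these genes was not tested.

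**Figure D3:**
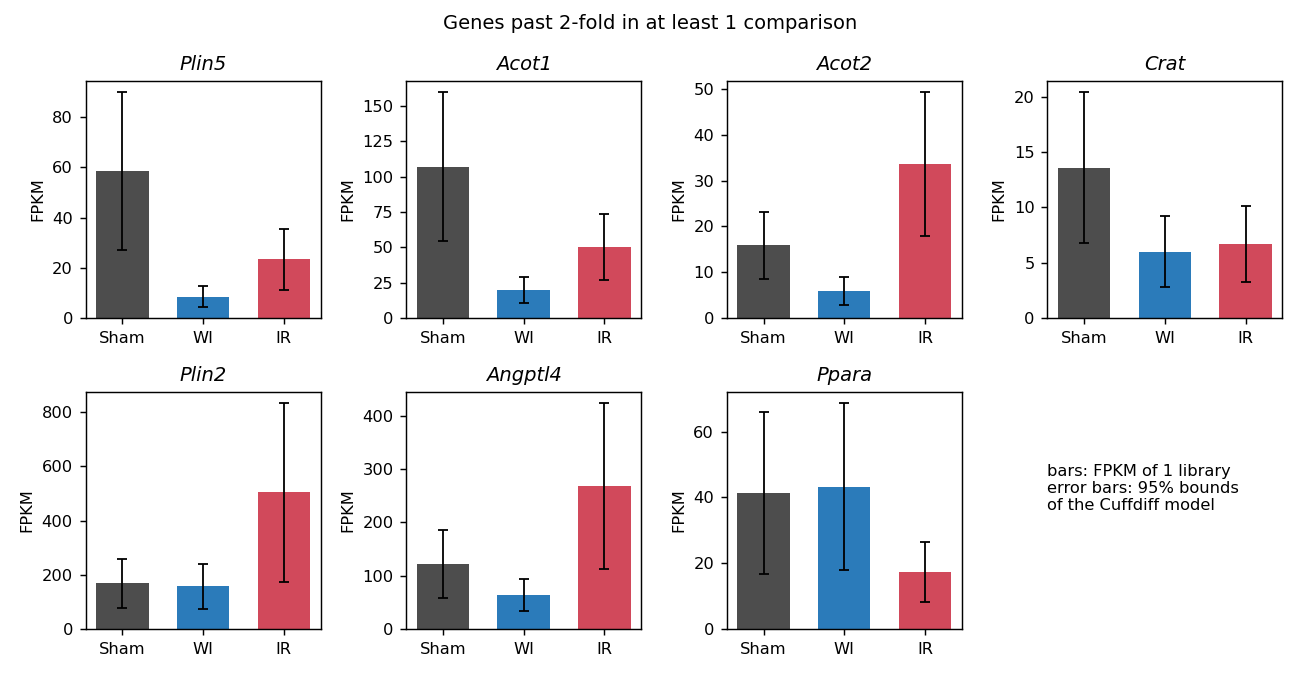
FPKM (linear axes from 0) of the 7 genes past 2-fold in at least 1 comparison, 1 bar per library, with the 95% bounds of the Cuffdiff model as error bars. Plin5, Acot1 and Acot2 are lowest in the WI library, Plin2 and Angptl4 highest in the IR library, and Ppara lowest in the IR library.

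A further 4 inducible targets had their lowest level under WI without passing 2-fold. Vnn1, a pantetheinase that is a sensitive PPARA target in liver, had an FPKM of 29.5 under sham (15.7 to 43.3), 16.3 under WI (8.77 to 23.9) and 25.9 under IR (13.9 to 38.0). Acsl1, the main long-chain acyl-CoA synthetase of liver, had 203 under sham (75.6 to 330.4), 139 under WI (57.4 to 220.4) and 204 under IR (75.7 to 332). Creb3l3, a membrane-bound transcription factor of the liver that acts with PPARA, had 101 under sham (47.9 to 154), 78.5 under WI (38.4 to 118) and 122 under IR (56.5 to 188). For each of these genes the bounds of the libraries overlapped, and the changes from sham to WI were -0.82, -0.54 and -0.36. Their return under IR depended on the scaling. With FPKM rescaled to a common sum, IR was at 0.12, 0.007 and 0.10 against WI in the same order, and at -0.75, -0.58 and -0.30 against sham. The median of all genes was then at -0.45 in both comparisons. Fgf21, a hormone of the fasting liver, was low throughout, at 1.92 under sham (0.611 to 3.22), 0.768 under WI (0.162 to 1.37) and 1.55 under IR (0.457 to 2.64). Its changes of -0.72 and 0.53 became -1.31 and 1.003, past 2-fold, with a pseudocount of 0.01.

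Both fatty acid carriers stayed within 2-fold. Fabp1, the fatty acid binding protein of hepatocytes, was the most abundant of the 35 genes, at rank 7, 9 and 18 of all genes under sham, WI and IR, with loci of status HIDATA (1, 1 and 7) listed at 0 and so ranked below it. Its FPKM was 5601 under sham (1046 to 10156), 4762 under WI (1069.8 to 8454) and 7007 under IR (1039 to 12974), so the bounds were far wider than the difference between libraries. Cd36, a fatty acid translocase that is also present on macrophages and endothelium and is known to be higher in female than in male mouse liver, had 38.0 under sham (18.2 to 57.9), 33.0 under WI (15.8 to 50.2) and 26.7 under IR (13.5 to 39.9). It was highest under sham and lowest under IR, at -0.50 between them, with overlapping bounds. Xist and 6 of the 7 Kupffer cell and macrophage markers were at least 2-fold lower under IR too, and the part of these cells in the level of Cd36 was not tested, while sex cannot be told apart from reperfusion.

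In mitochondrial oxidation, the enzymes that load and unload carnitine were below sham in both other libraries. Crat, which moves acetyl groups between CoA and carnitine and is on chromosome 2 from 30392416 to 30415748, had 13.6 under sham (6.77 to 20.4), 5.99 under WI (2.78 to 9.21) and 6.70 under IR (3.27 to 10.1). It was the 1 gene among the 16 past 2-fold, at -1.06 from sham to WI, with overlapping bounds, and its level under IR was close to that under WI. Cpt1a, the outer-membrane carnitine palmitoyltransferase that limits entry into mitochondria, had 136 under sham (54.8 to 218), 94.7 under WI (41.3 to 148) and 84.1 under IR (37.6 to 131). Cpt2, its partner on the inner membrane, had 56.4, 43.5 and 44.7 under sham, WI and IR. Against sham, IR was at -0.92 for Crat, -0.69 for Cpt1a and -0.33 for Cpt2, short of 2-fold and with overlapping bounds. With a pseudocount of 0.01 Crat was past 2-fold, at -1.02. With FPKM rescaled to a common sum these genes were at -1.51, -1.27 and -0.91 in the same order, beside -0.45 for the median of all genes.

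The acyl-CoA dehydrogenases, which open each cycle on chains of different length, were at similar levels in the 3 libraries. Acadvl, for very long chains, had an FPKM of 154, 142 and 180.3 in the order sham, WI and IR, Acadl 103, 96.1 and 98.8, and Acadm 153, 119.6 and 141. Acads, for short chains, had 58.3, 66.2 and 84.7 and was at 0.53 under IR against sham, which turned to -0.04 with FPKM rescaled to a common sum. Electrons pass from these enzymes to the respiratory chain through flavoproteins, encoded by Etfa with 203, 224 and 239, Etfb with 263, 268 and 390.3 and Etfdh with 99.8, 82.3 and 106. Etfb had the highest change of the mitochondrial class from sham to IR, 0.57, with overlapping bounds, and was at -0.01 after that rescaling. The rescaling put the median of all genes at -0.45 in that comparison.

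The later steps of the cycle differed little. Hadha and Hadhb, the subunits of the trifunctional protein that are encoded next to each other on chromosome 5, had an FPKM of 83.1, 65.6 and 77.9 and of 115, 95.2 and 114. Hadh, for shorter chains, had 196, 211 and 193, and the thiolase Acaa2 had 559.6, 503 and 656. Decr1 and Eci1, which prepare unsaturated chains for the cycle, had 69.0, 58.7 and 67.5 and 88.9, 82.0 and 105. Over the 16 mitochondrial genes the changes ran from -1.06 to 0.18 from sham to WI and from -0.17 to 0.54 from WI to IR. Their summed FPKM was 2352 under sham, 2159 under WI and 2589.7 under IR, which was 0.494%, 0.442% and 0.364% of the FPKM of all genes.

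The 5 genes of peroxisomal oxidation were all lower under WI than under sham, and none passed 2-fold. Ehhadh, the bifunctional hydratase and dehydrogenase of peroxisomes and a classical PPARA target, had an FPKM of 189.9 under sham (77.7 to 302), 119.7 under WI (54.0 to 185) and 184 under IR (76.0 to 292). Eci2, an enoyl-CoA isomerase found in peroxisomes and mitochondria, had 159.9 under sham (67.8 to 252), 99.8 under WI (43.7 to 156) and 153 under IR (69.5 to 236). Both were lowest under WI, with changes of -0.66 and then 0.61 for Ehhadh and -0.67 and then 0.61 for Eci2. The return under IR depended on the scaling. With FPKM rescaled to a common sum IR was at 0.07 against WI for both genes and at -0.63 and -0.65 against sham. The median of all genes was then at -0.45 in both comparisons. The thiolases Acaa1a and Acaa1b had 124, 117 and 136 and 445, 355 and 461, and Decr2, a reductase for unsaturated chains, had 119.6, 105 and 96.8. Without these 2 thiolases, whose windows are shared, the median from sham to WI was -0.66.

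The 2 ketogenesis genes differed in direction from sham to WI. Acat1, the thiolase that joins acetyl-CoA units at the entry to ketogenesis, had an FPKM of 124 under sham (53.7 to 195), 94.7 under WI (43.2 to 146) and 85.4 under IR (39.6 to 131). Bdh1, which forms beta-hydroxybutyrate, had 62.2 under sham (28.9 to 95.6), 79.1 under WI (35.5 to 123) and 62.5 under IR (30.3 to 94.8). Bdh1 was highest under WI at a change of 0.34 from sham, Acat1 was highest under sham, and the bounds overlapped for both.

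A further 97 genes of the same pathways were followed, of which 89 passed the filter. They were listed with earlier results of these data known, so their shares are not independent support for those of the 35. From sham to WI, 10 of the 89 were at least 2-fold lower (11.2%, against 1.10% of all genes tested) and 0 higher (against 0.751%). From WI to IR 12 were higher (13.5%, against 5.78%) and 1 was lower (1.12%, against 1.43%). From sham to IR 3 were higher (3.37%, against 5.35%) and 8 were lower (8.99%, against 2.15%). Their median changes were -0.10, -0.01 and -0.04. The 20 genes past 2-fold in any comparison are named here, and 0 of them were among the 16 other mitochondrial genes tested.

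The omega oxidation genes act on the far end of the fatty acid chain and include strong PPARA responders. Of these 5 genes 3 were at least 2-fold lower under WI than under sham (60.0%, against 1.10% of all genes tested). From WI to IR 4 were at least 2-fold higher (80.0%, against 5.78%) and 1, Aldh3a2, was lower (20.0%, against 1.43%). The counts from WI to IR may depend on the scaling of the IR library. Cyp4a10 had an FPKM of 544 under sham (175 to 912), 168 under WI (75.9 to 259.7) and 599 under IR (187 to 1012), and Cyp4a14, which was also on the list of female-biased genes, had 578, 205 and 685. The changes were -1.69 and 1.83 for Cyp4a10 and -1.49 and 1.74 for Cyp4a14. Cyp4a31 had 11.8, 4.11 and 21.1 and Cyp4a32 had 11.9, 6.47 and 16.7, the latter at -0.79 from sham to WI, short of 2-fold. Cyp4a10 shares 515 of its 2060 windows with Cyp4a32 and 236 with Cyp4a31, so these levels are uncertain, while it shares 0 with Cyp4a14. Aldh3a2, a fatty aldehyde dehydrogenase of the same route, was level under sham and WI at 132 and 131 and at 63.6 under IR. Cyp4a12a and Cyp4a12b were listed among the male-biased liver genes and not among these 5. Under sham, WI and IR, Cyp4a12a had 0.0792, 0.216 and 57.4 and Cyp4a12b had 0.0338, 0.0521 and 33.1. Sex cannot be told apart from reperfusion in the levels of these genes under IR.

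Among lipid droplet and lipolysis genes, Hilpda, a droplet protein that inhibits lipolysis and is known as a target of hypoxia-inducible factors, had an FPKM of 8.21 under sham (3.66 to 12.8), 2.54 under WI (0.837 to 4.24) and 62.1 under IR (33.3 to 90.9). The bounds of IR were apart from those of each other library, and the change from WI to IR was 4.16. Cidec, which fuses droplets, had 2.52, 0.388 and 4.05, and Pnpla2, the lipase that opens triglyceride breakdown, had 52.7, 27.1 and 57.5. G0s2, the inhibitor of Pnpla2, had 262 under sham (129 to 396), 134 under WI (69.6 to 197) and 68.9 under IR (37.0 to 101), with bounds apart between sham and IR. Fitm2, which helps droplets form, had 27.1, 13.9 and 11.9, and Plin4 had 2.42, 0.23 and 0.341.

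Among the other genes, Pdk4, the kinase that shuts off pyruvate dehydrogenase when fatty acids are burned, had an FPKM of 135 under sham (59.2 to 212), 16.1 under WI (8.62 to 23.5) and 79.8 under IR (38.0 to 122), with bounds of WI apart from both. Slc22a5, the carnitine transporter of the cell membrane, had 27.0 under sham (14.3 to 39.6), 11.3 under WI (6.04 to 16.5) and 34.8 under IR (18.2 to 51.4), with bounds apart between WI and IR. Pex11a, a peroxisome division factor, had 69.6, 26.0 and 23.1, and Lpin1, a phosphatidate phosphatase that also acts as a coactivator of PPARA, had 149, 26.1 and 23.6. Pex11a and Lpin1 were thus about as low under IR as under WI, while Pdk4 and Slc22a5 were higher under IR. Lpin2 and Txnip were at least 2-fold lower under IR than under sham, at -1.02 and -1.06.

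Under IR, Crot, which makes carnitine esters of the products of peroxisomal oxidation, had 194 against 97.9 under sham and 91.5 under WI. Slc16a1, a carrier of lactate and ketone bodies, had 24.9 against 9.37 and 8.29. Fabp4, known from adipocytes, macrophages and capillary endothelium, had 15.5 under sham (7.33 to 23.7), 14.0 under WI (6.48 to 21.6) and 64.4 under IR (34.6 to 94.3), with bounds of IR apart from both. Of 6 adipocyte markers 4 were listed at 0 under sham and IR and 5 under WI, and their summed FPKM was 2.44, 0.230 and 0.420, which includes Plin4. The summed FPKM of 6 endothelial markers was 153, 116 and 116 and their median 11.03, 7.99 and 15.6. Among them Lyve1 alone was higher under IR than under sham, at 11.2, 2.73 and 33.4. From sham to WI it changed by -1.71, whereas Fabp4 changed by -0.14. Stab2, Clec4g, Kdr, Pecam1 and Fcgr2b were lower under IR than under sham, at -0.55, -0.76, -1.04, -0.36 and -0.81. The part of these cells and of macrophages in the level of Fabp4 was not tested.

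**Figure D4:**
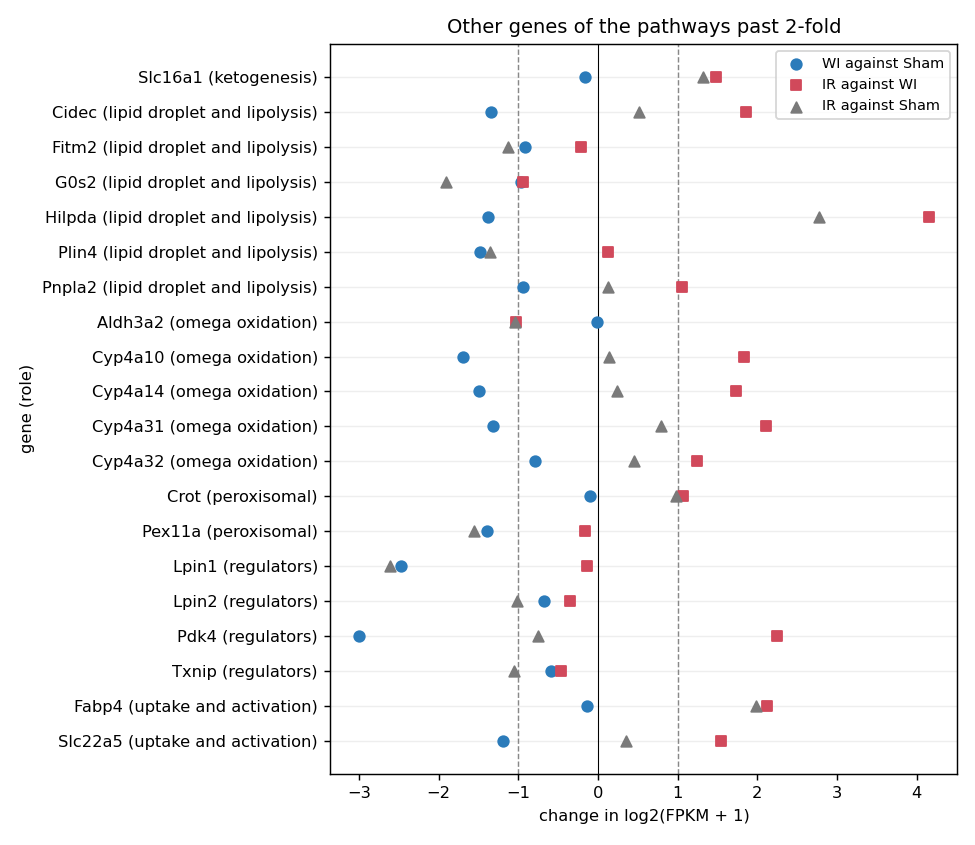
Change in log2(FPKM + 1) of the 20 genes outside the 35 that were past 2-fold in at least 1 of the 3 comparisons (circles, WI against sham; squares, IR against WI; triangles, IR against sham; dashed lines, 2-fold). Hilpda has the highest change, 4.16 from WI to IR, and Pdk4 the lowest, from sham to WI. Values use FPKM as deposited, and those with IR may depend on the scaling.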

How the data were processed

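Liver RNA of 3 libraries (sham, WI and IR, 1 each) was analysed. Per the labels and the study's methods, the authors mapped the reads to mm10 and computed FPKM per gene with 95% bounds by Cuffdiff, and the submitters' processing notes name TopHat2 2.0.9 and Cufflinks 2.0.2. The deposited tables hold these FPKM values with a status for each gene. From them log2(FPKM + 1) was compared over the 10792 genes that reach an FPKM of 1 in any library. Single libraries allow no test, so genes past 2-fold were counted beside the share of all genes past it. Starts in the tables lie 1 base before those of RefSeq, so 1 was added (22 of 35 then equal the RefSeq start, 0 before). Promoters came from RefSeq (GRCm38.p6), and transcripts for the 50-base windows from GENCODE on NCBIM37, used for sequence only. Genes and lists were chosen with earlier results of these data known. All 35 genes are named, and of the 97 others those past 2-fold in any comparison and a few fixed by name, some of which are not reported here. The calling script was tested on simulated data. Other pseudocounts, filters, fold thresholds and scalings, the status, the bounds and the paralogs were varied. Python 3.11.15, numpy 2.4.6, pandas 2.3.3 and matplotlib 3.10.9 were used.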

Additional observations from a re-analysis of the deposited data

How the results depend on the processing

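No paired analysis was possible because each group has 1 library, and for the same reason no library could be left out. Of the 18 counts and class medians, none moved beyond 1.5 times (counts) or the error of the Cuffdiff model (medians) with other filters on FPKM, with a pseudocount of 0.1, with scaling by the median ratio or with genes of status OK alone. With thresholds of 1.5-fold and 4-fold, 9 and 2 of the 35 genes were lower under WI than under sham instead of 4, 9 and 2 were higher under IR than under WI instead of 5, and 0 instead of 1 were lower at 4-fold. Against sham, 5 genes instead of 3 were lower under IR at 1.5-fold, and 0 were higher or lower at 4-fold. Shares of all genes past 1.5-fold and 4-fold were not computed. These counts therefore show only how the calls depend on the threshold and cannot be set against the other genes. With bounds that do not overlap as a further criterion, 2 were lower under WI than under sham, 2 were higher and 0 lower under IR than under WI, and 0 were higher and 0 lower under IR than under sham. Without Acot1, Acot2, Acaa1a and Acaa1b, 2 were lower under WI than under sham and 3 higher under IR than under WI, and the peroxisomal median from sham to WI was -0.66. A pseudocount of 0.01 moved the median of PPARA target and lipid droplet genes from WI to IR to 0.83.

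Rescaling FPKM to a common sum moved the median of all genes to -0.45 in both comparisons with IR. From WI to IR it left 3 genes at least 2-fold higher and gave medians of -0.30 (mitochondrial), -0.17 (peroxisomal), -0.78 (ketogenesis) and 0.21 (PPARA target and lipid droplet). From sham to IR, 1 gene was higher and 7 were lower, with medians of -0.60, -0.63, -0.85 and -0.62 in the same order. When the changes were then taken relative to the median of all genes, an alternative chosen after seeing the data, 0 of the counts and medians moved. Subtracting that median largely undoes a rescaling by a constant factor per library, so this outcome was fixed in advance. It does not lessen the dependence on the scaling.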

Other observations

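A few partners, cofactors and relatives of PPARA that were within 2-fold, unlike Lpin1, were chosen after their values were seen. In the order sham, WI and IR, Rxra, with which PPARA binds DNA, had an FPKM of 70.8, 71.9 and 55.7. Ppargc1a, a coactivator of the fasting response, had 4.58, 3.26 and 2.02, the corepressor Ncor1 9.86, 8.83 and 6.56, and the coactivator Med1 5.61, 4.58 and 3.45. These 4 genes were lowest under IR, like Ppara, and all their bounds overlapped. Of the related receptors, Pparg was at 4.47, 6.09 and 4.31 and Ppard at 1.93, 1.84 and 3.96.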
